A study of Mus musculus with 10 samples.

Results

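The genes examined here are those of the organic ion transporters and the ABC transporters in mouse liver and liver tumours. They were chosen by symbol alone, as every entry of the expression table that belongs to the Slco (organic anion transporting polypeptides, OATP), Slc22, Slc10 or Abc gene families. Slc10a1 and Abcb11, the main bile acid carriers, were left out of the set. The rule found 73 genes of 16697 in the table. Of these, 31 were solute carriers (9 Slco, 17 Slc22 and 5 Slc10 genes) and 42 were ABC genes (11 Abca, 8 Abcb, 10 Abcc, 4 Abcd, 1 Abce, 3 Abcf and 5 Abcg genes). A mean of at least 1 FPKM (fragments per kilobase of gene, scaled to library size) in at least 1 group was reached by 64 of them, and 63 passed the filter on low values and were tested.

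RNA sequencing had been done on normal liver (NL, n = 4), on tumours induced with c-MYC and the empty vector pT3-EF1α (c-MYC, n = 3) and on tumours induced with c-MYC and FOXO1AAA (c-MYC/FOXO1AAA, n = 3). FOXO1AAA is a form of the transcription factor FOXO1 that AKT cannot inactivate by phosphorylation, here carrying a MYC tag. The plasmids were given by hydrodynamic tail vein injection with the sleeping beauty transposase, which inserts the transgenes, driven by the EF1α promoter, into hepatocytes that take them up. NL came from WT mice, and the labels give all 10 samples as WT and C57BL/6, whereas the extraction protocol and the methods name FVB/N mice. Age, time of harvest and sex of each sample are not given in the sources used here, nor is it stated whether tumours were freed of surrounding liver. The comparison of c-MYC/FOXO1AAA with c-MYC asks whether active FOXO1 changes the molecular features of c-MYC tumours. Both comparisons with c-MYC use the same 3 c-MYC libraries, and both with NL the same 4 NL libraries.

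Hepatocytes take up bile acids, bilirubin, hormones and drugs from sinusoidal blood through OATP and Slc22 carriers and move their products into bile with ATP-driven ABC pumps of the canalicular membrane. Other ABC proteins return conjugates to the blood, move lipids within and out of cells, or carry substrates into mitochondria, peroxisomes and lysosomes. The ABCE and ABCF proteins have ATP-binding domains but no membrane domain and act on ribosomes and translation. The uptake carriers and canalicular pumps are known as products of mature hepatocytes, under the control of factors such as HNF4A, FXR and PXR.

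RefSeq promoters of build GRCm38.p6, each 300 bases from 250 before to 50 after a start, were found for 54 of the 73 genes (64 promoters). They are shown for 8 genes on which the results turn: an uptake carrier (Slco1b2, chr6:141629268-141629567, plus strand), the ergothioneine carrier Slc22a4 (chr11:54028055-54028354, minus strand), a cholesterol pump subunit (Abcg5, chr17:84682962-84683261, minus strand), both P-glycoprotein genes (Abcb1a, chr5:8566841-8567140, and Abcb1b, chr5:8797897-8798196, plus strand), the lipid transporter Abca5 (chr11:110337667-110337966, minus strand), the conjugate pump Abcc4 (chr14:118706170-118706469, minus strand) and the translation factor Abcf1 (chr17:35969701-35970000, minus strand). Capitals mark the FOXO motif TGTTTAC or the E box CACGTG, a motif that MYC can bind, on either strand.
Slco1b2: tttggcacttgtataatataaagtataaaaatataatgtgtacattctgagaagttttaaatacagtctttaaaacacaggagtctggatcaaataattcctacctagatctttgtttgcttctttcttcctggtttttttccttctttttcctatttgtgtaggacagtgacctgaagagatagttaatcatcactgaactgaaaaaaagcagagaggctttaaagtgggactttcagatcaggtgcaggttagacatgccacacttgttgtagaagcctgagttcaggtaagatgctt
Slc22a4: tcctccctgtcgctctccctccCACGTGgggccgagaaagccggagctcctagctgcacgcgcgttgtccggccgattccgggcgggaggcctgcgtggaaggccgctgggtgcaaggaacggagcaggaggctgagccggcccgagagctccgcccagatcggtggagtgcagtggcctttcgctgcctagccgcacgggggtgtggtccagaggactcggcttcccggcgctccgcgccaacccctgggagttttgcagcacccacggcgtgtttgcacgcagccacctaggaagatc
Abcg5: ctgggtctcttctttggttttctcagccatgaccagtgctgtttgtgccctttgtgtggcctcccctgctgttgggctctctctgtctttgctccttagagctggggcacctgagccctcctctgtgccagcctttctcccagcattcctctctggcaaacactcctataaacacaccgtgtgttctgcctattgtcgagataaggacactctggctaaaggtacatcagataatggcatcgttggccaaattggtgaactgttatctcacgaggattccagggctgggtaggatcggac
Abcb1a: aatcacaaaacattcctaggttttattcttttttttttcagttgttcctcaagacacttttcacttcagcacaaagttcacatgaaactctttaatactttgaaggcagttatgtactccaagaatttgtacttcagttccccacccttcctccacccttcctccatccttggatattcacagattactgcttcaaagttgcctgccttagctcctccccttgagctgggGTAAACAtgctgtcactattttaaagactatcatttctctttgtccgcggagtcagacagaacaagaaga
Abcb1b: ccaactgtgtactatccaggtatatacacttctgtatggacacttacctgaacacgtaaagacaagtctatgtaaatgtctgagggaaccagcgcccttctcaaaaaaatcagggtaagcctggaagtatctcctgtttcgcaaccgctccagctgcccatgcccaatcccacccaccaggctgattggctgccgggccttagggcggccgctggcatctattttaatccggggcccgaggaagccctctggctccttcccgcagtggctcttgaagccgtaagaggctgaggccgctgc
Abca5: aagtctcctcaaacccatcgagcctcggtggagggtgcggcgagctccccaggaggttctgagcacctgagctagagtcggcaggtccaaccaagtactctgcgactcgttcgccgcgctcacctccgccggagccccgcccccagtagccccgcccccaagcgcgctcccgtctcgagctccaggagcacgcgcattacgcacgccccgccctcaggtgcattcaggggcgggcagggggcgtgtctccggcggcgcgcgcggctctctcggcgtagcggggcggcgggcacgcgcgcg
Abcc4: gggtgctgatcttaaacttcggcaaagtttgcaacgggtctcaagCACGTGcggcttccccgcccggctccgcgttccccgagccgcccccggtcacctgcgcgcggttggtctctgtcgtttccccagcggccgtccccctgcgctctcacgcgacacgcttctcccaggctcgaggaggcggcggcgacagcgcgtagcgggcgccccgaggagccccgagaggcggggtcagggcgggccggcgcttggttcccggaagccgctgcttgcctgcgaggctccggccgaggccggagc
Abcf1: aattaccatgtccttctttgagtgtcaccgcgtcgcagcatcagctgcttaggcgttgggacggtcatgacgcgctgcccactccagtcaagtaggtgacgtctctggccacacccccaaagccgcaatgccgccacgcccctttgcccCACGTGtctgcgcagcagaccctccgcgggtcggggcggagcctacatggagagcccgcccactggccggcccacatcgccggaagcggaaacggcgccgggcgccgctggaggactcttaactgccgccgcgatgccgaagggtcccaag
The FOXO motif was present in 1199 of 32851 promoters of the same length (3.65%) and in 1 of the 64 member promoters (1.56%). That match lay 20 bases before a start of Abcb1a, on the minus strand, so that the printed plus strand reads GTAAACA. This start lies upstream of the Abcb1a position used below, which begins at chr5:8660077. The E box was present in 2349 promoters (7.15%) and in 7 member promoters (10.9%), those of Abca1, Abca8a, Abca8b, Abcc4, Abcf1, Slc22a4 and Slco1c1. Among these 7 genes, Abcc4 and Abcf1 were above NL in c-MYC, and Abca1, Abca8a and Slc22a4 were lower. The promoters of Abcb1b and Abca5, both higher with FOXO1AAA, held neither motif within these 300 bases.

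The libraries held 13.12 M to 20.55 M reads (M, mega) in listed genes. The summed level of 7 hepatocyte markers was 80900 to 91000 FPKM in NL, 3310 to 5180 in c-MYC and 881 to 1560 in c-MYC/FOXO1AAA, so that all tumours still contained hepatocyte transcripts, and all 7 markers were lower in either tumour group than in NL. In bulk tissue, fewer hepatocytes and less RNA per hepatocyte cannot be told apart. Summed markers of stellate cells and fibroblasts (7 genes) were 79.8 to 102 FPKM in NL, 10.5 to 33.3 in c-MYC and 328 to 411 in c-MYC/FOXO1AAA, those of endothelium (7 genes) 46.7 to 62.5, 10.2 to 17.6 and 27.0 to 41.5, and those of Kupffer cells and macrophages (6 genes) 187 to 326, 95.4 to 136 and 44.9 to 77.1. With FOXO1AAA, 4 of the 7 stellate and fibroblast markers were above c-MYC and none was lower, against 1 higher and none lower of 6 tested endothelial markers. Within these lists, the stellate cell marker Lrat was at 3.83, 0.0746 and 0.255 FPKM in NL, c-MYC and c-MYC/FOXO1AAA but Reln at 4.95, 0.0913 and 5.98 FPKM, and the endothelial marker Clec4g was at 33.5, 0.132 and 0.476 FPKM but Cdh5 at 4.58, 4.58 and 25.9 FPKM. Cholangiocyte markers summed to 19.8 to 27.6, 17.3 to 32.1 and 29.9 to 37.8 FPKM, and lymphocyte markers (4 of 7 in the expression table) to 2.68 to 5.15, 2.77 to 4.11 and 8.92 to 12.9 FPKM. With FOXO1AAA the lymphocyte sum was mostly Cd79a (means 0.293, 0.136 and 9.44 FPKM). The means of Ptprc (1.24, 1.83 and 1.01), Nkg7 (1.17, 1.13 and 0.182) and Cd3g (0.873, 0.245 and 0.341) were below NL there. The part of these cell types in the results was not tested.

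The 73 genes of the set together reached 3860 ± 139 FPKM in the 4 NL libraries (mean ± SD, as for all levels), against 1300 ± 121 in the 3 of c-MYC and 759 ± 23.2 in the 3 of c-MYC/FOXO1AAA. The loss was uneven between the families. Solute carriers went from 2010 ± 63.1 FPKM in NL to 148 ± 21.8 and 83.2 ± 9.38, while ABC genes went from 1850 ± 92.2 to 1160 ± 99.4 and 675 ± 18.1. The ABC sums include the ABCE and ABCF genes, which encode proteins without a membrane domain, at 364 ± 43.3, 580 ± 36.5 and 420 ± 24.6 FPKM. In NL, 12 of the 73 genes had a mean of at least 100 FPKM, against 4 in c-MYC and 1 in c-MYC/FOXO1AAA. The order of the most abundant members changed accordingly. The highest levels in NL included those of Slco1b2, Abca8a, Slco1a1 and Slc22a23. c-MYC was led by Abcf1, Abcd4, Abcf3, Abca8a and Slc22a23, and c-MYC/FOXO1AAA by Abcf1, Abcf3, Abcf2, Abce1 and Abcb1b. Abcf1 alone made up 29.2% of the summed member level in c-MYC and 34.8% in c-MYC/FOXO1AAA. Sums, shares and ranks across genes depend on the length by which reads were divided, such as 724 bases for Abcf1 and 3793 for Abce1. In c-MYC/FOXO1AAA, Abcf1 held 4285, 6353 and 3657 reads at a mean of 264 FPKM. Abce1 held 3862, 4504 and 2852 reads there at 39.8 FPKM.

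**Figure D1:**
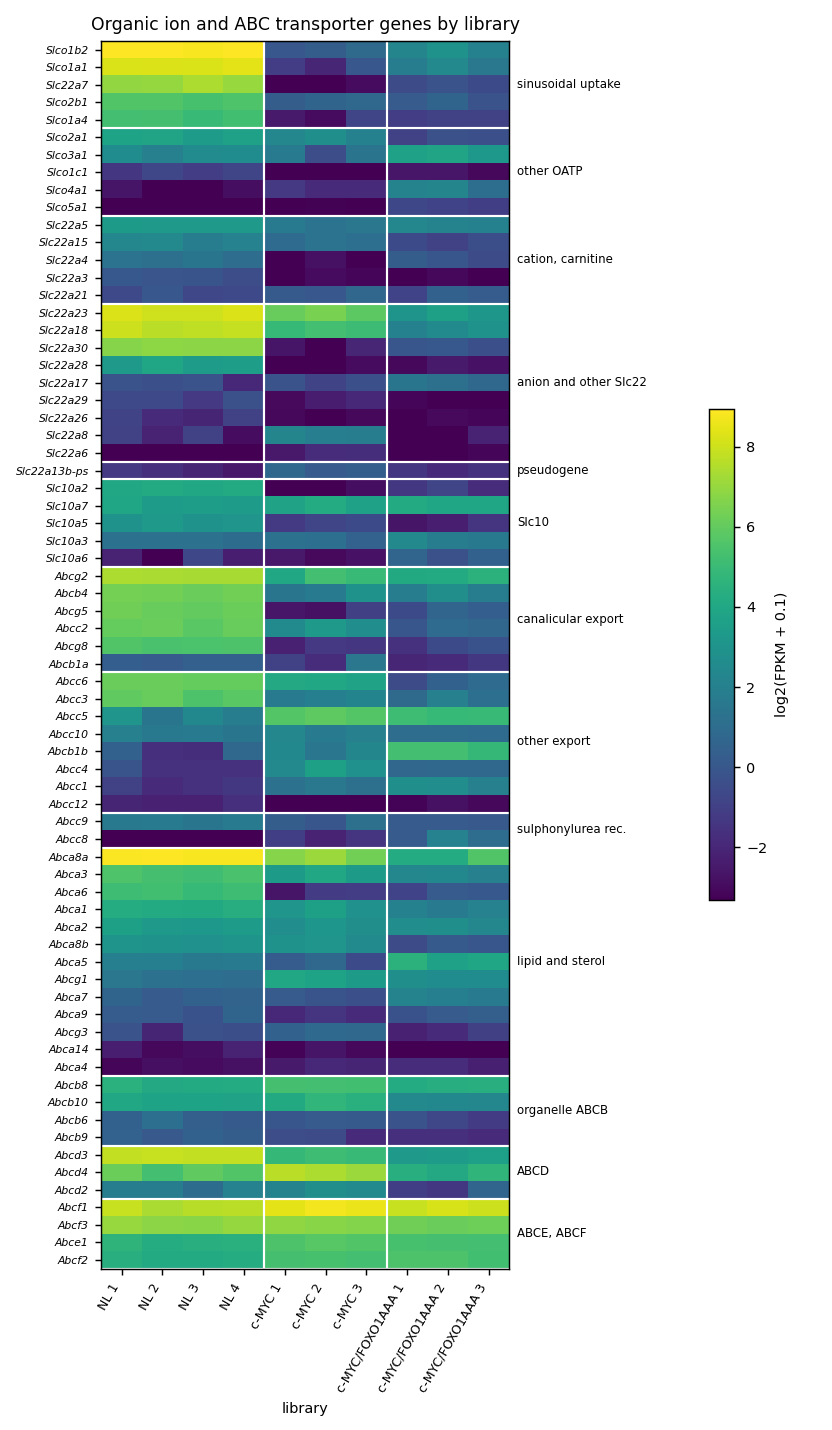
Level of 70 members in each of the 10 libraries as log2(FPKM + 0.1), with genes in rows grouped by role and libraries in columns. The sinusoidal uptake genes drawn are brighter in the 4 NL libraries than in all 6 tumour libraries. So are the canalicular export genes except Abcb1a, which is low in NL (1.04 to 1.27 FPKM) and higher in c-MYC 3 (2.78 FPKM). Abcg2 keeps 16.0 to 38.2 FPKM in the tumours. The ABCE and ABCF genes are bright throughout.

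Each gene was tested for a change beyond 1.5-fold with limma treat, and a gene is called higher or lower at a Benjamini-Hochberg adjusted p under 0.05 over all 14017 genes tested. In c-MYC versus NL, 31 of 63 members were lower (49.2%, against 23.6% of all genes tested) and 13 were higher (20.6%, against 24.5%). In c-MYC/FOXO1AAA versus c-MYC, 20 were lower (31.7%, against 12.7%) and 15 were higher (23.8%, against 15.9%). In c-MYC/FOXO1AAA versus NL, 37 were lower (58.7%, against 26.6%) and 12 were higher (19.0%, against 31.2%). Differences are given on the log2 scale ± SE. The median log2 difference of the members in these comparisons was -1.20, -0.36 and -1.91, beside 0.08, 0.03 and 0.21 over all genes tested. For the solute carriers alone it was -2.38, 0.85 and -4.63, and for the ABC genes -0.56, -0.63 and -1.37. Rescaling all libraries to the same FPKM total raised the median over all genes from 0.08 to 1.01 in c-MYC versus NL and from 0.21 to 1.31 in c-MYC/FOXO1AAA versus NL. On that scale the split was 21 higher and 25 lower members in c-MYC versus NL, and 20 higher and 28 lower in c-MYC/FOXO1AAA versus NL. Quantile normalization gave 12 higher and 25 lower in c-MYC/FOXO1AAA versus c-MYC.

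Over both steps, from NL to c-MYC and from c-MYC to c-MYC/FOXO1AAA, 11 of the 63 members were lower and then higher (17.5%, against 6.15% of all genes tested), 10 were lower in both (15.9%, against 3.7%) and 10 were lower and then not called (15.9%, against 13.7%). A further 5 were higher and then lower (7.94%, against 3.3%), 6 were higher and then not called (9.52%, against 19.6%) and 2 (Abcb1b and Slco4a1) were higher in both (3.17%, against 1.59%). Of those not called in c-MYC versus NL, 2 were higher with FOXO1AAA (3.17%, against 8.16%) and 5 were lower (7.94%, against 5.74%). Against NL, 28 members were lower in both tumour groups (44.4%, against 18.0%) and 8 were higher in both (12.7%, against 18.4%). Altogether 7 of the 63 members were called in none of the comparisons (11.1%, against 30.2%). The calls of low genes depended on the scale. With a pseudocount of 1 FPKM, the rise with FOXO1AAA was not called for Abca9, Abcg5, Slc10a2, Slc22a4, Slc22a7 and Slc22a30, at log2 differences between 0.38 and 0.87, the rise of Slco4a1 in c-MYC was 0.25 (limma treat adjusted p = 1.0), and Abcc4 was 0.95 above NL in c-MYC/FOXO1AAA (adjusted p = 0.12).

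**Figure D2:**
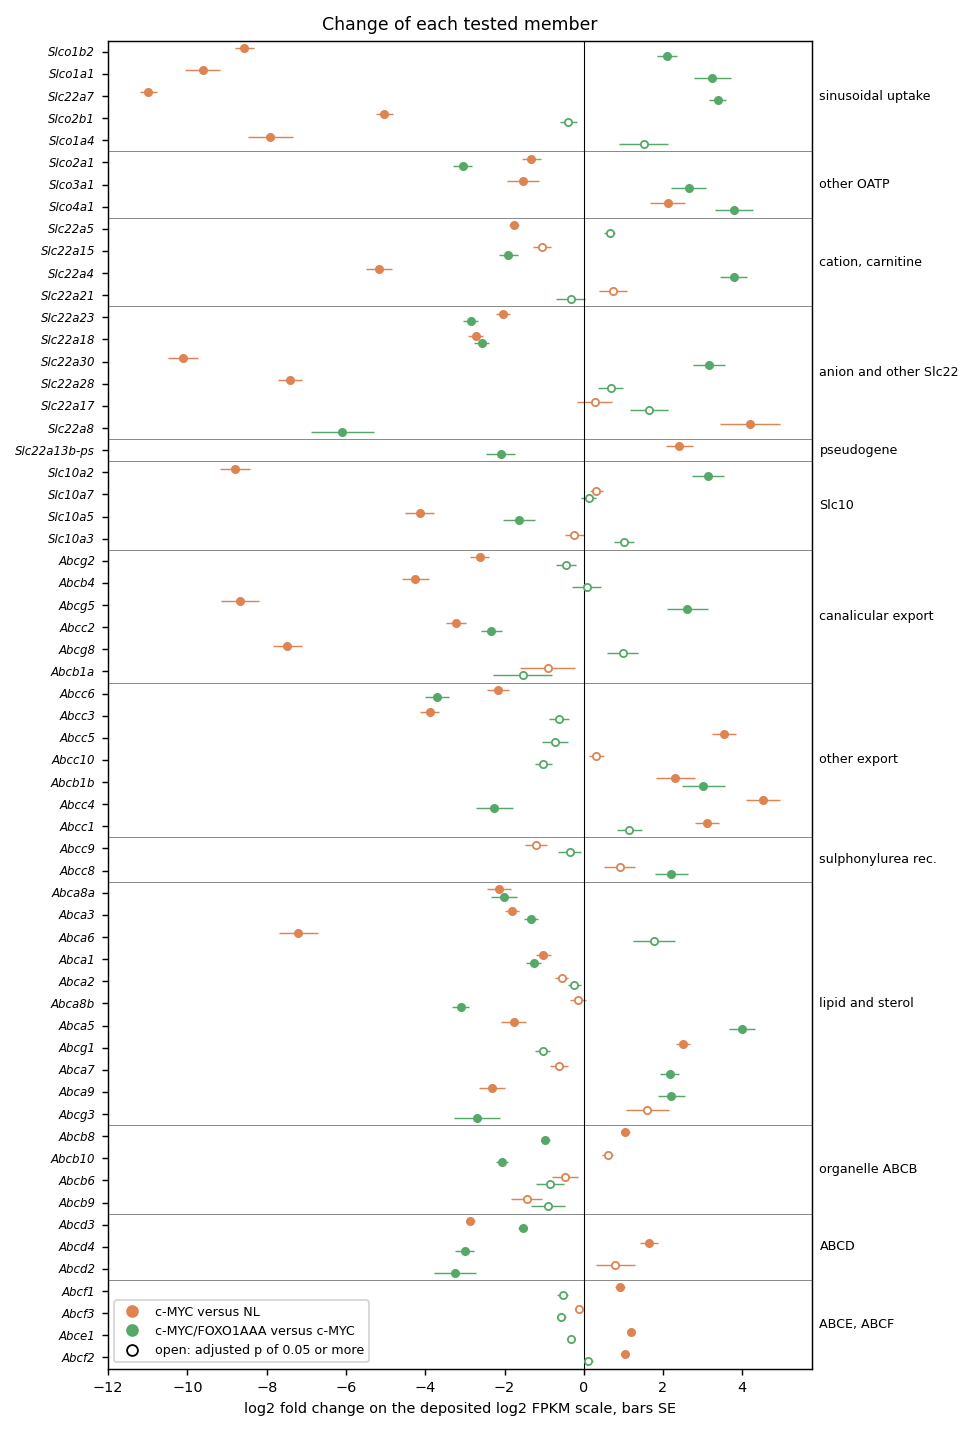
Log2 difference (x axis, deposited log2 FPKM scale) of 60 tested members for c-MYC versus NL (orange) and c-MYC/FOXO1AAA versus c-MYC (green), with bars for the standard error and open circles for an adjusted p of 0.05 or more. The 5 sinusoidal uptake genes drawn lie between -10.99 and -5.03 in the orange series and between -0.39 and 3.38 in the green series.

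The 6 sinusoidal uptake carriers showed the lowest median difference of the role groups. All were lower in both tumour groups than in NL, with a median log2 difference of -8.24 in c-MYC and -6.38 in c-MYC/FOXO1AAA. Of all genes tested, 18.0% were lower in both. Their summed level was 1290 ± 29.4 FPKM in NL (n = 4), dropped to 4.73 ± 2.18 in c-MYC (n = 3) and stood at 19.0 ± 4.92 in c-MYC/FOXO1AAA (n = 3). With FOXO1AAA, 4 of the 6 were higher than in c-MYC (against 15.9% of all genes tested) and 2 were not called. All 6 stayed between 0.467% and 2.63% of their NL level. Slco1b2 encodes OATP1B2, a carrier of bile acids, bilirubin and statins. It was at 480, 484, 446 and 489 FPKM in NL, at 0.906, 1.11 and 1.78 in c-MYC, and at 4.66, 7.86 and 4.1 in c-MYC/FOXO1AAA. The groups did not overlap, with log2 differences of -8.57 ± 0.24 (SE) in c-MYC versus NL (limma treat adjusted p = 1.94e-09) and 2.10 ± 0.26 in c-MYC/FOXO1AAA versus c-MYC (adjusted p = 0.000534). Slco1a1, which encodes the steroid conjugate carrier OATP1A1, was at 307, 316, 303 and 340 FPKM in NL, at 0.363, 0.15 and 0.906 in c-MYC, and at 3.58, 5.28 and 2.91 in c-MYC/FOXO1AAA. Its differences were -9.61 ± 0.44 and 3.24 ± 0.47 (limma treat adjusted p = 4.29e-08 and 0.000684), and without c-MYC 3 its c-MYC mean was 0.256 in place of 0.473 FPKM.

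Slc22a7, which encodes the organic anion carrier OAT2 and had the lowest fitted difference of the members, kept almost no reads in c-MYC. It was at 124, 128, 172 and 132 FPKM in NL, while the 3 c-MYC libraries together held 1 read, in c-MYC 3. The ratio of NL to c-MYC was 15300, with a 95% counting interval of 2750 to 606000. In c-MYC/FOXO1AAA it was at 0.592, 0.791 and 0.564 FPKM, which was called higher than in c-MYC (limma treat adjusted p = 1.96e-06), at a ratio of 71.7 with a counting interval of 12.9 to 2830. Slco2b1, a carrier of steroid sulphates, was at 48.3, 49.4, 41.4 and 46.6 FPKM in NL, at 1.12, 1.45 and 1.66 in c-MYC, and at 1.04, 1.46 and 0.779 in c-MYC/FOXO1AAA. The tumour groups overlapped for this gene, and their difference was -0.39 ± 0.22 (limma treat adjusted p = 1.0). Slco1a4, which encodes the digoxin carrier OATP1A4, was at 38.2, 40.0, 31.0 and 37.4 FPKM in NL, at 0.0855, 0.0278 and 0.484 in c-MYC, and at 0.361, 0.412 and 0.44 in c-MYC/FOXO1AAA. Its tumour groups overlapped through c-MYC 3, without which the c-MYC mean was 0.0566 in place of 0.199 FPKM.

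All 6 uptake genes were highest in c-MYC 3 among the c-MYC libraries, whereas of the 7 hepatocyte markers 4 were highest in c-MYC 2, 2 in c-MYC 3 and 1 in c-MYC 1. Cyp2e1, a hepatocyte cytochrome P450, was at 9.75, 2.75 and 27.4 FPKM in the c-MYC libraries and at 58.0, 85.6 and 46.8 in the c-MYC/FOXO1AAA libraries, against 6630 to 8720 in NL, and was called higher with FOXO1AAA. Of the 6 macrophage and Kupffer cell markers, 1 was called higher with FOXO1AAA (Clec4f, at 5.02, 1.22 and 7.16 against 16.0, 25.2 and 12.6 FPKM), 1 was called lower (Cd5l) and 4 were not called. The level of Slco1a1 was 3.52% to 4.77% of that of Cyp2e1 in NL, 3.3% to 5.44% in c-MYC and 6.17% to 6.22% in c-MYC/FOXO1AAA. For Slc22a7 the same ratio was 1.42% to 2.25% in NL, 0% to 0.0997% in c-MYC and 0.924% to 1.2% in c-MYC/FOXO1AAA. For Slco1b2 it was 5.51% to 7.3%, 6.48% to 40.3% and 8.05% to 9.18%, and for Slco2b1 0.541% to 0.745%, 6.06% to 52.7% and 1.66% to 1.79%. With FOXO1AAA, 5 of the 7 hepatocyte markers were lower than in c-MYC, and albumin (Alb) was not called, at 836 ± 519 and 641 ± 238 FPKM. The part of normal liver left in the tumour samples was not tested.

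**Figure D3:**
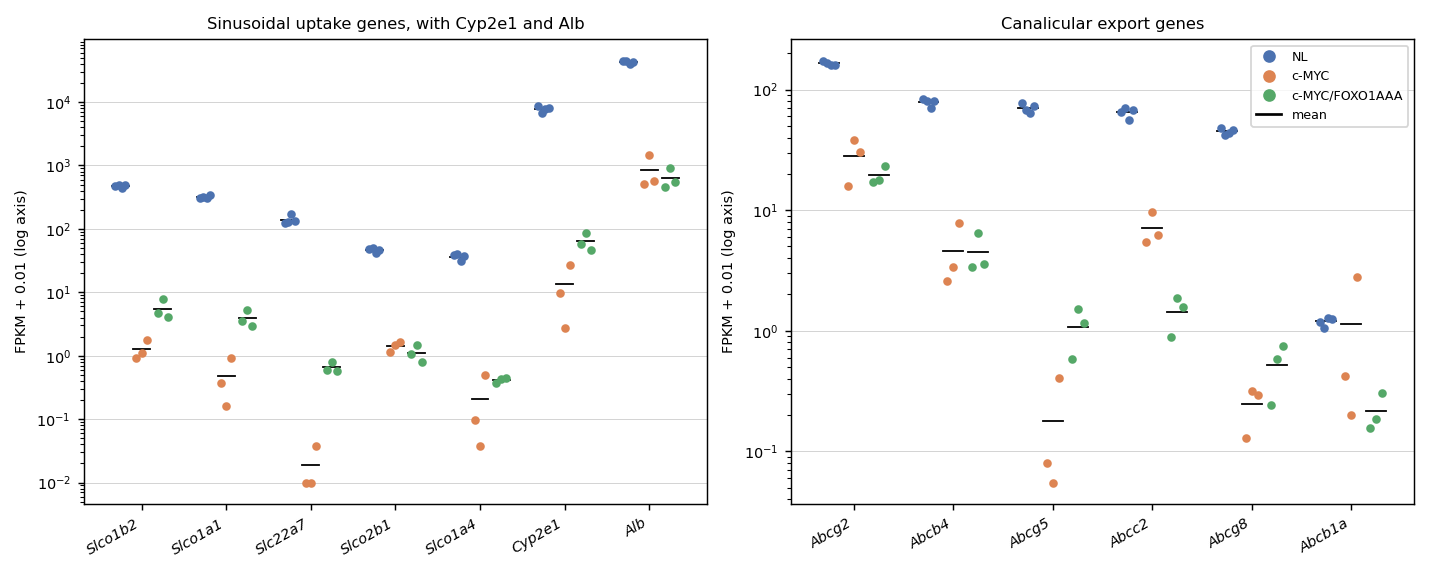
FPKM + 0.01 on a log axis in each library (points) with the group mean (line) for 5 sinusoidal uptake genes beside Cyp2e1 and Alb (left) and for the 6 canalicular export genes (right). The NL points of these uptake genes lie at 31 FPKM or above and their tumour points at 7.86 FPKM or below.

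The 6 canalicular pumps summed to 425 ± 22.3 FPKM in NL (n = 4), against 41.4 ± 14.6 in c-MYC (n = 3) and 27.2 ± 4.29 in c-MYC/FOXO1AAA (n = 3). In c-MYC, 5 of 6 were lower than in NL (against 23.6% of all genes tested), and in c-MYC/FOXO1AAA all 6 were (against 26.6%). Between the tumour groups 1 was higher and 1 was lower, against 15.9% and 12.7% of all genes tested. Abcg2 encodes BCRP, a pump of drugs and sulphated conjugates, and kept the highest FPKM of the 6 in all groups. This rank rests on a length of 701 bases, against 8027 for Abcc2. In NL 1, Abcg2 held 1344 reads and Abcc2 5788. Abcg2 was at 174, 166, 160 and 159 FPKM in NL, at 16.0, 38.2 and 30.2 in c-MYC, and at 17.2, 17.9 and 23.4 in c-MYC/FOXO1AAA. The log2 difference from NL was -2.63 ± 0.24 in c-MYC (limma treat adjusted p = 2.01e-05), and the tumour groups overlapped. Abcb4 encodes the phosphatidylcholine translocator MDR2, and its level was 83.0, 80.1, 70.4 and 80.7 FPKM in NL, 2.6, 3.35 and 7.86 in c-MYC, and 3.4, 6.49 and 3.56 in c-MYC/FOXO1AAA. The 2 tumour groups overlapped, with a difference of 0.07 ± 0.37. Without c-MYC 3 the c-MYC mean of Abcb4 was 2.97 in place of 4.60 FPKM.

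Abcg5 and Abcg8 encode the subunits of the heterodimer that secretes cholesterol and plant sterols into bile. Abcg5 was at 77.7, 68.1, 63.8 and 72.8 FPKM in NL, at 0.0695, 0.0452 and 0.394 in c-MYC, and at 0.57, 1.5 and 1.15 in c-MYC/FOXO1AAA. It was lower in c-MYC (-8.68 ± 0.48, limma treat adjusted p = 1.69e-07) and higher again with FOXO1AAA (2.61 ± 0.52, adjusted p = 0.00673), to 1.52% of its NL level, and without c-MYC 3 its c-MYC mean was 0.0573 in place of 0.169 FPKM. The rise of Abcg5 with FOXO1AAA lost its call under 2 of 23 alternatives, at 0.81 with a pseudocount of 1 FPKM (limma treat adjusted p = 0.351) and at 1.64 with quantile normalization (adjusted p = 0.0661). Abcg8 was at 48.1, 42.3, 43.5 and 46.0 FPKM in NL, at 0.119, 0.304 and 0.282 in c-MYC, and at 0.232, 0.575 and 0.737 in c-MYC/FOXO1AAA. Its tumour groups overlapped, with a difference of 0.98 ± 0.40 (limma treat adjusted p = 0.426), so that the 2 subunits differed in their call although not in direction, and the difference between them was not tested. Abcc2, which encodes MRP2, the exporter of bilirubin glucuronide, followed a falling course through both steps. It was at 65.3, 70.4, 56.4 and 67.3 FPKM in NL, at 5.48, 9.65 and 6.27 in c-MYC, and at 0.88, 1.86 and 1.56 in c-MYC/FOXO1AAA, with differences of -3.22 ± 0.25 and -2.33 ± 0.27 (limma treat adjusted p = 4.28e-06 and 0.00026). Abcb1a, the P-glycoprotein gene with the FOXO motif shown above, had means of 1.18 FPKM in NL, 1.13 in c-MYC and 0.205 in c-MYC/FOXO1AAA. The c-MYC mean rested on c-MYC 3 (2.78 FPKM) and was 0.303 without it. Its lower level in c-MYC/FOXO1AAA than in NL (limma treat adjusted p = 0.022) lost its call under 5 of 22 alternatives, among them leaving out c-MYC/FOXO1AAA 1 or 2 (adjusted p = 0.0683 and 0.0588).

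Among the exporters outside the canalicular list, the direction was split. Abcc1, Abcc4, Abcc5 and Abcb1b were higher in both tumour groups than in NL, and Abcc3 and Abcc6 were lower in both. Abcc5 encodes MRP5, a pump of cyclic nucleotides. Its level was 8.29, 2.61, 5.23 and 3.43 FPKM in NL, 50.3, 59.0 and 50.3 in c-MYC, and 35.4, 30 and 31.6 in c-MYC/FOXO1AAA. The rise in c-MYC was 3.54 ± 0.31 on the log2 scale (limma treat adjusted p = 9.45e-06), and the difference between tumour groups was -0.72 ± 0.33 (adjusted p = 0.77), without overlap. Abcc4 encodes MRP4, which exports bile acids and cyclic nucleotides across the basolateral membrane. It was at 0.808, 0.241, 0.233 and 0.234 FPKM in NL, at 5.42, 12.3 and 7.28 in c-MYC, and at 1.54, 1.67 and 1.68 in c-MYC/FOXO1AAA. The change was 4.52 ± 0.44 in c-MYC versus NL and -2.26 ± 0.47 with FOXO1AAA (limma treat adjusted p = 1.09e-05 and 0.0101), the largest fitted rise among the tested members in c-MYC, and without NL 1 its NL mean was 0.236 in place of 0.379 FPKM. Abcc1, which encodes MRP1, the exporter of glutathione conjugates, had means of 0.284 FPKM in NL, 2.49 in c-MYC and 5.68 in c-MYC/FOXO1AAA. Its rise in c-MYC was 3.10 ± 0.30 (limma treat adjusted p = 1.93e-05).

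Abcb1b, the other P-glycoprotein gene of the mouse, rose at both steps. It was at 1.3, 0.217, 0.209 and 1.6 FPKM in NL, at 5.13, 2.71 and 4.9 in c-MYC, and at 38.2, 37.9 and 28.6 in c-MYC/FOXO1AAA. The log2 differences were 2.31 ± 0.50 in c-MYC versus NL and 3.01 ± 0.54 with FOXO1AAA (limma treat adjusted p = 0.00814 and 0.00298), and both held under all alternatives tried. By FPKM, which for this gene rests on a length of 489 bases, Abcb1b ranked 5 among the members in c-MYC/FOXO1AAA. Its fitted level was 39.8-fold above NL. Abcc3 encodes MRP3, which returns glucuronides to the blood, and was at 61.5, 66.9, 46.1 and 55.1 FPKM in NL, at 3.29, 3.79 and 4.47 in c-MYC, and at 1.8, 3.91 and 2.11 in c-MYC/FOXO1AAA. The tumour groups overlapped. Abcc6, whose product is needed for ATP release from hepatocytes and so for plasma pyrophosphate, was at 69.6, 69.7, 66.1 and 65.4 FPKM in NL, at 16.8, 15.6 and 13.2 in c-MYC, and at 0.62, 1.3 and 1.82 in c-MYC/FOXO1AAA. Here the second step was the larger, at -3.70 ± 0.30 against -2.16 ± 0.28 (limma treat adjusted p = 9.35e-06 and 0.000377), although the difference between the steps was not tested. Abcc10, which encodes MRP7, had means of 3.21, 4.05 and 1.96 FPKM and was not called.

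**Figure D4:**
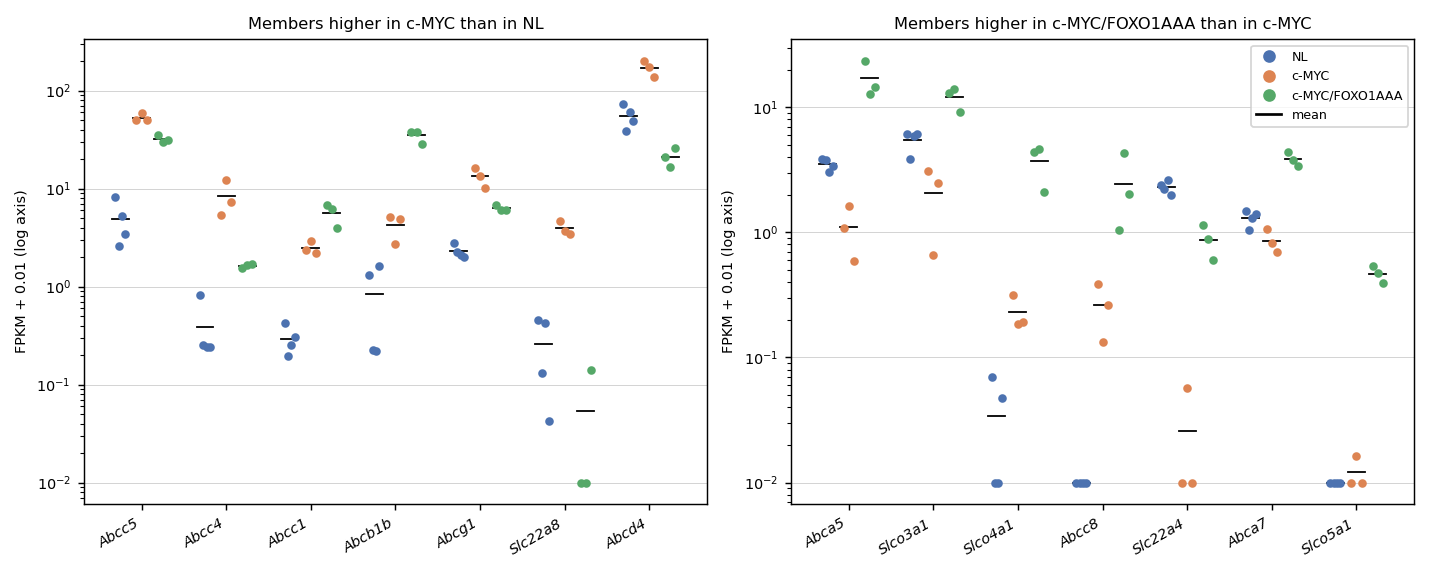
FPKM + 0.01 on a log axis in each library (points) with the group mean (line) for 7 members higher in c-MYC than in NL (left) and for 7 members with higher values with FOXO1AAA than without it (right), of which Slco5a1 was not tested. Abcb1b and Abcc1 are highest in c-MYC/FOXO1AAA, whereas Abcc4, Slc22a8 and Abcd4 peak in c-MYC.

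Of the 3 other OATP genes tested, Slco2a1 was lower at both steps, Slco3a1 was lower and then higher, and Slco4a1 was higher at both. Slco2a1, which encodes the prostaglandin transporter, had means of 12.9 FPKM in NL, 5.26 in c-MYC and 0.616 in c-MYC/FOXO1AAA (-1.32 ± 0.23 and -3.06 ± 0.24, limma treat adjusted p = 0.0106 and 9.28e-06). The lower level of Slco2a1 in c-MYC lost its call under 3 of 23 alternatives, at -1.15 without c-MYC 3 (limma treat adjusted p = 0.0507), at -0.39 on the scale of equal FPKM totals (adjusted p = 0.933) and with a threshold of 2-fold (adjusted p = 0.245). Slco3a1, which encodes OATP3A1, was at 6.07, 3.88, 5.93 and 6.11 FPKM in NL, at 3.07, 0.647 and 2.49 in c-MYC, and at 13.0, 14.1 and 9.17 in c-MYC/FOXO1AAA. The last was 220% of NL, a difference that was not called (1.11 ± 0.41, limma treat adjusted p = 0.181). The rise with FOXO1AAA was 2.65 ± 0.44 (limma treat adjusted p = 0.00231), while the lower level in c-MYC (-1.53 ± 0.41, adjusted p = 0.0462) lost its call under 13 of 23 alternatives, 6 of which left out a library, with adjusted p up to 0.17 without c-MYC 2. Slco4a1, a carrier of thyroid hormone, held 3 reads in NL in all and had means of 0.0243 FPKM there, 0.222 in c-MYC and 3.70 in c-MYC/FOXO1AAA. The ratio to NL was 8.72 in c-MYC, with a counting interval of 2.98 to 42.3, and 145 in c-MYC/FOXO1AAA, with an interval of 49.8 to 705. Without NL 1, which held 2 of the 3 reads, the NL mean was 0.0123 FPKM.

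Of the organic cation and carnitine carriers, c-MYC/FOXO1AAA had less Slc22a5, Slc22a4 and Slc22a15 than NL. Slc22a4 encodes OCTN1, the carrier of the antioxidant ergothioneine. Its level was 2.4, 2.2, 2.62 and 1.97 FPKM in NL, and the c-MYC libraries held 2 reads, both in c-MYC 2. In c-MYC/FOXO1AAA it was at 1.13, 0.873 and 0.586 FPKM, 37.5% of NL. The ratio of NL to c-MYC was 145 (counting interval 40 to 1190) and that of c-MYC/FOXO1AAA to c-MYC was 54.2 (15 to 448), with limma treat adjusted p = 3.81e-07 and 1.89e-05. Its lower level in c-MYC/FOXO1AAA than in NL (-1.40 ± 0.32, limma treat adjusted p = 0.0271) lost its call under 6 of 22 alternatives, among them leaving out NL 3 or c-MYC/FOXO1AAA 2 or 3 (adjusted p = 0.057, 0.0513 and 0.112). Slc22a5, which encodes the high-affinity carnitine carrier OCTN2, had means of 9.66, 2.84 and 4.47 FPKM. It was lower in c-MYC than in NL (-1.76 ± 0.13, limma treat adjusted p = 9.52e-06), and the tumour groups did not overlap but were not called apart (0.65 ± 0.14, adjusted p = 0.712). On the scale of equal FPKM totals its difference between c-MYC/FOXO1AAA and NL was -0.01. Slc22a15 had means of 4.53, 2.16 and 0.554 FPKM and was lower with FOXO1AAA (-1.90 ± 0.23). Slc22a21, a carnitine carrier, had means of 0.634, 1.16 and 0.935 FPKM and was not called.

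Among the other Slc22 genes, those with the highest FPKM in NL, Slc22a23 and Slc22a18, were lower at both steps. Slc22a23, an orphan carrier, was at 309, 268, 267 and 309 FPKM in NL, at 68.4, 89.4 and 56.6 in c-MYC, and at 7.91, 12.4 and 8.82 in c-MYC/FOXO1AAA. Slc22a18, an orphan carrier of an imprinted region, was at 252, 205, 216 and 231 FPKM in NL, at 29.6, 38.9 and 33.8 in c-MYC, and at 4.1, 5.67 and 7.51 in c-MYC/FOXO1AAA. For both genes the 3 groups were fully separate, with differences of -2.03 ± 0.18 and -2.85 ± 0.19 for Slc22a23 and of -2.73 ± 0.18 and -2.57 ± 0.19 for Slc22a18 (limma treat adjusted p at most 2.16e-05). Slc22a30, a rodent organic anion carrier, instead followed the sinusoidal pattern. It was at 103, 114, 111 and 111 FPKM in NL, at 0.0629, 0 and 0.147 in c-MYC (3, 0 and 7 reads), and at 0.875, 0.954 and 0.687 in c-MYC/FOXO1AAA, with differences of -10.12 ± 0.38 and 3.16 ± 0.41 (limma treat adjusted p = 7.94e-09 and 0.000287). Without c-MYC 3 the mean of Slc22a30 in c-MYC was 0.0315 rather than 0.0699 FPKM. Its neighbour Slc22a28 had means of 11.6 FPKM in NL and 0.0516 in c-MYC/FOXO1AAA and held 1 read in c-MYC, a ratio of NL to c-MYC of 1290 with a counting interval of 231 to 50800.

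Slc22a8 encodes OAT3, an organic anion carrier of the kidney tubule, and stood out among the solute carriers. It was at 0.443, 0.122, 0.412 and 0.032 FPKM in NL, at 4.7, 3.68 and 3.46 in c-MYC, and at 0, 0 and 0.132 in c-MYC/FOXO1AAA. The c-MYC libraries held 300, 241 and 221 reads, against 17, 4, 14 and 1 in NL and 0, 0 and 9 with FOXO1AAA. The differences were 4.19 ± 0.75 in c-MYC versus NL and -6.09 ± 0.80 with FOXO1AAA (limma treat adjusted p = 0.00116 and 0.000187). The adjacent kidney carrier gene Slc22a6 (OAT1) was not tested and held 6, 15 and 15 reads in c-MYC, 0 in all NL libraries and 1 in c-MYC/FOXO1AAA. Slc22a17, which encodes a receptor for lipocalin 2, had means of 0.599, 0.659 and 2.18 FPKM and was higher in c-MYC/FOXO1AAA than in NL (1.92 ± 0.45, limma treat adjusted p = 0.0132). That call was lost with quantile normalization (1.46, limma treat adjusted p = 0.0576) and with a threshold of 2-fold (adjusted p = 0.0759). The pseudogene Slc22a13b-ps was at 0.31, 0.218, 0.14 and 0.0764 FPKM in NL, at 1.61, 1.06 and 1.19 in c-MYC, and at 0.278, 0.184 and 0.245 in c-MYC/FOXO1AAA, and it overlaps Slc22a14 on the same strand.

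In the Slc10 family, Slc10a2 encodes ASBT, the ileal bile acid carrier, which is also found in bile ducts. It was at 16.0, 17.8, 15.7 and 17.9 FPKM in NL, while the c-MYC libraries held 3 reads, all in c-MYC 3, and c-MYC/FOXO1AAA was at 0.293, 0.492 and 0.196 FPKM. The ratio of NL to c-MYC was 1300 (counting interval 444 to 6290) and that of c-MYC/FOXO1AAA to c-MYC was 25.2 (8.61 to 122). Slc10a5, an orphan carrier, had means of 8.40, 0.458 and 0.141 FPKM and was lower in c-MYC (-4.14 ± 0.37, limma treat adjusted p = 7.12e-06), while its further difference with FOXO1AAA (-1.64 ± 0.40, adjusted p = 0.0412) lost its call under 13 of 22 alternatives, 8 of which left out a library, and its c-MYC/FOXO1AAA mean was 0.0822 without c-MYC/FOXO1AAA 3. Slc10a7, at 11.8, 14.9 and 16.0 FPKM, and Slc10a3, at 2.24, 1.92 and 3.94 FPKM, were not called. Slc10a3 overlaps Ubl4a on the same strand, so reads of both genes may be mixed. Slc10a6, a carrier of steroid sulphates, was not tested, at 0.191, 0.0511 and 1.17 FPKM, the NL mean being 0.0776 without NL 3.

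Of 11 lipid and sterol transporters tested, 6 were lower and 1 was higher in c-MYC than in NL, against 23.6% and 24.5% of all genes tested. Abca8a had the highest FPKM of the ABC genes in NL, on a length of 484 bases. It was at 473, 483, 449 and 447 FPKM in NL, at 105, 135 and 80.5 in c-MYC, and at 18.7, 18.4 and 48.9 in c-MYC/FOXO1AAA, where the mean of 28.7 FPKM became 18.5 without c-MYC/FOXO1AAA 3. It was lower at each step (-2.14 ± 0.31 and -2.02 ± 0.33, limma treat adjusted p = 0.000822 and 0.00364). Abca3, known for packing surfactant lipids, was at 47.0, 40.0, 36.4 and 42.7 FPKM in NL, at 10, 15.8 and 10.3 in c-MYC, and at 4.95, 5.16 and 3.92 in c-MYC/FOXO1AAA. Abca1, which passes cholesterol to apolipoprotein A-I, was at 19.2, 18.0, 17.4 and 19.7 FPKM in NL, at 8.43, 12.3 and 7.37 in c-MYC, and at 4.11, 3.14 and 4.24 in c-MYC/FOXO1AAA. The groups were separate, with differences of -1.02 ± 0.18 and -1.26 ± 0.19 (limma treat adjusted p = 0.0336 and 0.00933). The lower level of Abca1 in c-MYC lost its call under 7 of 23 alternatives, 4 of which left out a library (adjusted p from 0.0618 to 0.145), and was -0.09 on the scale of equal FPKM totals. Abcg1, the exporter of cholesterol to HDL, moved the other way. Its means were 2.29 FPKM in NL, 13.3 in c-MYC and 6.32 in c-MYC/FOXO1AAA, and it was higher in both tumour groups than in NL (2.50 ± 0.18 and 1.46 ± 0.18, limma treat adjusted p = 2.93e-06 and 0.000666).

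Abca5, a lipid transporter of endosomes and lysosomes, had the largest fitted rise with FOXO1AAA among the tested members. It was at 3.85, 3.8, 3.05 and 3.38 FPKM in NL, at 1.07, 1.61 and 0.583 in c-MYC, and at 23.6, 12.8 and 14.5 in c-MYC/FOXO1AAA. No library of any group overlapped another group, and the level with FOXO1AAA was 482% of NL. The log2 differences were -1.77 ± 0.31 in c-MYC versus NL, 3.99 ± 0.33 with FOXO1AAA and 2.21 ± 0.31 in c-MYC/FOXO1AAA versus NL (limma treat adjusted p = 0.00425, 9.08e-06 and 0.000435), and the rise with FOXO1AAA was called under all alternatives tried. The lower level of Abca5 in c-MYC lost its call on the scale of equal FPKM totals (-0.84, limma treat adjusted p = 0.3). Abca9 was at 1.09, 1.06, 0.738 and 1.47 FPKM in NL, at 0.162, 0.274 and 0.171 in c-MYC, and at 0.75, 1.03 and 1.22 in c-MYC/FOXO1AAA, so that it overlapped NL again. Abca7, a phospholipid transporter, had means of 1.30, 0.847 and 3.85 FPKM and was higher with FOXO1AAA (2.17 ± 0.24, limma treat adjusted p = 0.000205). Abca6 was at 34.8, 37.1, 29.6 and 34.6 FPKM in NL, at 0.0624, 0.355 and 0.364 in c-MYC, and at 0.449, 1.03 and 0.944 in c-MYC/FOXO1AAA. Abca8b had means of 7.80, 7.13 and 0.819 FPKM and was not called in c-MYC and was lower with FOXO1AAA (-3.11 ± 0.21, limma treat adjusted p = 3.13e-06). Abcg3, a rodent relative of Abcg2, had means of 0.571, 1.57 and 0.233 FPKM (0.148 without c-MYC/FOXO1AAA 3), and Abca2, at 10.5, 7.14 and 6.05 FPKM, was not called.

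Each of the peroxisomal and lysosomal ABCD genes was called below NL in c-MYC/FOXO1AAA, against 26.6% of all genes tested. For Abcd4 and Abcd2 this call rested on the scale. With equal FPKM totals their differences from NL were -0.26 and -1.35 (limma treat adjusted p = 1.0 and 0.0954), and with a threshold of 2-fold the adjusted p of Abcd4 was 0.145. Abcd3, which encodes the peroxisomal carrier PMP70 for branched fatty acids and bile acid precursors, was at 222, 242, 221 and 226 FPKM in NL, at 28.3, 35.1 and 30.8 in c-MYC, and at 9.47, 10.9 and 12.0 in c-MYC/FOXO1AAA (-2.86 ± 0.11 and -1.54 ± 0.11, limma treat adjusted p = 1.9e-08 and 3.59e-05). Abcd4, which moves cobalamin out of lysosomes, peaked in c-MYC. Its level was 72.4, 38.8, 61.2 and 49.3 FPKM in NL, 203, 173 and 137 in c-MYC, and 20.9, 16.5 and 26.0 in c-MYC/FOXO1AAA. The differences were 1.64 ± 0.23 in c-MYC versus NL and -3.0 ± 0.24 with FOXO1AAA (limma treat adjusted p = 0.00127 and 1.12e-05). Abcd2, a peroxisomal fatty acid carrier, had means of 3.28, 5.53 and 0.727 FPKM and was lower with FOXO1AAA (-3.24 ± 0.53, limma treat adjusted p = 0.0014), where the mean was 0.339 without c-MYC/FOXO1AAA 3.

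The mitochondrial and lysosomal ABCB genes changed less. Abcb8, a mitochondrial transporter, was at 22.4, 16.6, 17.7 and 18.7 FPKM in NL, at 39.8, 38.8 and 37.6 in c-MYC, and at 18.4, 19.7 and 21.3 in c-MYC/FOXO1AAA. Its level with FOXO1AAA overlapped that of NL, after differences of 1.05 ± 0.11 and -0.97 ± 0.12 (limma treat adjusted p = 0.00252 and 0.0175). Without c-MYC/FOXO1AAA 1 the latter was -0.92 (adjusted p = 0.0657). Abcb10, a mitochondrial transporter of red cell and liver haem metabolism, was at 16.1, 13.7, 13.7 and 13.4 FPKM in NL, at 17.4, 26.7 and 21.6 in c-MYC, and at 5.27, 5.1 and 4.94 in c-MYC/FOXO1AAA, and was lower with FOXO1AAA (-2.07 ± 0.15, limma treat adjusted p = 1.04e-05). Abcb6 had means of 1.40, 0.970 and 0.543 FPKM and Abcb9 of 1.18, 0.471 and 0.207 FPKM, and both were lower only in c-MYC/FOXO1AAA versus NL, the call of Abcb6 being lost under 10 of 22 alternatives, 5 of which left out a library. The call of Abcb9 was lost with equal FPKM totals (-1.24, limma treat adjusted p = 0.0848) and with a pseudocount of 1 FPKM (-0.85, adjusted p = 0.0618).

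The genes of the ABC proteins without a membrane domain summed to 364 ± 43.3 FPKM in NL, 580 ± 36.5 in c-MYC and 420 ± 24.6 in c-MYC/FOXO1AAA. Abcf1, a factor of translation initiation with an E box in the promoter shown above, was at 240, 168, 199 and 205 FPKM in NL, at 346, 417 and 380 in c-MYC, and at 240, 294 and 258 in c-MYC/FOXO1AAA. The difference in c-MYC was 0.91 ± 0.13 (limma treat adjusted p = 0.0312), a call lost under 7 of 23 alternatives, 5 of which left out a library (adjusted p from 0.0512 to 0.102). Abce1, which splits ribosomes for recycling, was at 25, 19.1, 21.2 and 22.1 FPKM in NL, at 46.2, 54.3 and 48.5 in c-MYC, and at 41.3, 39.8 and 38.3 in c-MYC/FOXO1AAA (1.19 ± 0.11 in c-MYC versus NL, limma treat adjusted p = 0.000309). Its higher level in c-MYC/FOXO1AAA than in NL (0.87 ± 0.11, adjusted p = 0.0201) lost its call without NL 2 or c-MYC/FOXO1AAA 1 (adjusted p = 0.0521 and 0.0606). Abcf2 was at 21.3, 18.1, 18.1 and 19.3 FPKM in NL, at 39.9, 40.5 and 38.5 in c-MYC, and at 45.5, 46.0 and 37.7 in c-MYC/FOXO1AAA (1.05 ± 0.10 in c-MYC versus NL, limma treat adjusted p = 0.00134). Abcf3 had means of 120, 110 and 73.7 FPKM and was not called. Between the tumour groups the log2 differences of these 4 genes ranged from -0.57 to 0.11 (limma treat adjusted p = 1.0).

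The genes of the sulphonylurea receptors, regulatory subunits of potassium channels, differed from each other. Abcc8, known from pancreatic beta cells, had no reads in NL, 0.379, 0.123 and 0.253 FPKM in c-MYC, and 1.04, 4.27 and 2.01 FPKM in c-MYC/FOXO1AAA. Against a floor of 3 reads per library it was at least 3.42-fold higher in c-MYC/FOXO1AAA than in NL, and it was called higher than in c-MYC (2.21 ± 0.41, limma treat adjusted p = 0.006). That call was lost with quantile normalization (1.51, limma treat adjusted p = 0.0993). On a length of 431 bases, the c-MYC libraries held 3, 1 and 2 reads of Abcc8 and the c-MYC/FOXO1AAA libraries 11, 55 and 17. The c-MYC/FOXO1AAA mean of Abcc8, 2.44 FPKM, became 1.52 without c-MYC/FOXO1AAA 2. Abcc9, known from smooth muscle and pericytes, had means of 3.01, 1.40 and 1.01 FPKM and was lower in c-MYC/FOXO1AAA than in NL (-1.56 ± 0.28, limma treat adjusted p = 0.00587), whereas the summed stellate and fibroblast markers were higher there. The call of Abcc9 was lost with equal FPKM totals (-0.46, limma treat adjusted p = 0.775) and with a threshold of 2-fold (adjusted p = 0.0825).

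Many members lie within 500 kb of another member, and in some of these groups neighbours took different courses. Positions are those of build GRCm38. In the Abca cluster of chromosome 11 (chr11:109932190-110337716, all on the minus strand, in the order Abca8b, Abca8a, Abca9, Abca6, Abca5), the genes at both ends differed most with FOXO1AAA. Abca8b was lower and Abca5 higher than in c-MYC, and Abca5 was also the only gene of the 5 above its NL level. On chromosome 5, Abcb1a, Abcb1b and Abcb4 lie in line on the plus strand (chr5:8660077-8959231). There Abcb1b rose to 34.9 FPKM in c-MYC/FOXO1AAA, while Abcb1a and Abcb4 were at 0.205 and 4.48 FPKM. These levels rest on the length used per gene, 489 bases for Abcb1b, 4997 for Abcb1a and 2791 for Abcb4. The c-MYC/FOXO1AAA libraries held 460, 554 and 274 reads of Abcb1b, and 234, 541 and 195 of Abcb4. Abcb1a and Abcb1b are close paralogs, as are Abca8a and Abca8b and the Slc22 genes of chromosome 19, and it is not stated how reads that match both copies were counted.

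The OATP genes of chromosome 6 (Slco1c1, Slco1b2, Slco1a4 and Slco1a1, chr6:141524368-141946962) all had lower means in c-MYC than in NL, Slco1c1 being untested. Of the 6 neighbouring Slc22 genes of chromosome 19 (chr19:7781041-8628299), Slc22a26, Slc22a28, Slc22a29 and Slc22a30 on the minus strand had lower means in c-MYC than in NL, whereas Slc22a8 and Slc22a6 on the plus strand had higher means, with 4 of these 6 genes at under 1 FPKM in NL. On chromosome 17, RefSeq starts of Abcg5 and Abcg8 lie 110 bases apart on opposite strands. The overlap of 6.7 kb between the annotated genes comes from another Abcg8 start, at chr17:84676302. It is not stated whether reads were counted by strand. On chromosome 7, Abcc6 and Abcc8 lie 74.2 kb apart. With FOXO1AAA the mean of Abcc6 was 1.25 against 15.2 FPKM in c-MYC, and that of Abcc8 was 2.44 against 0.252 FPKM.

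**Figure D5:**
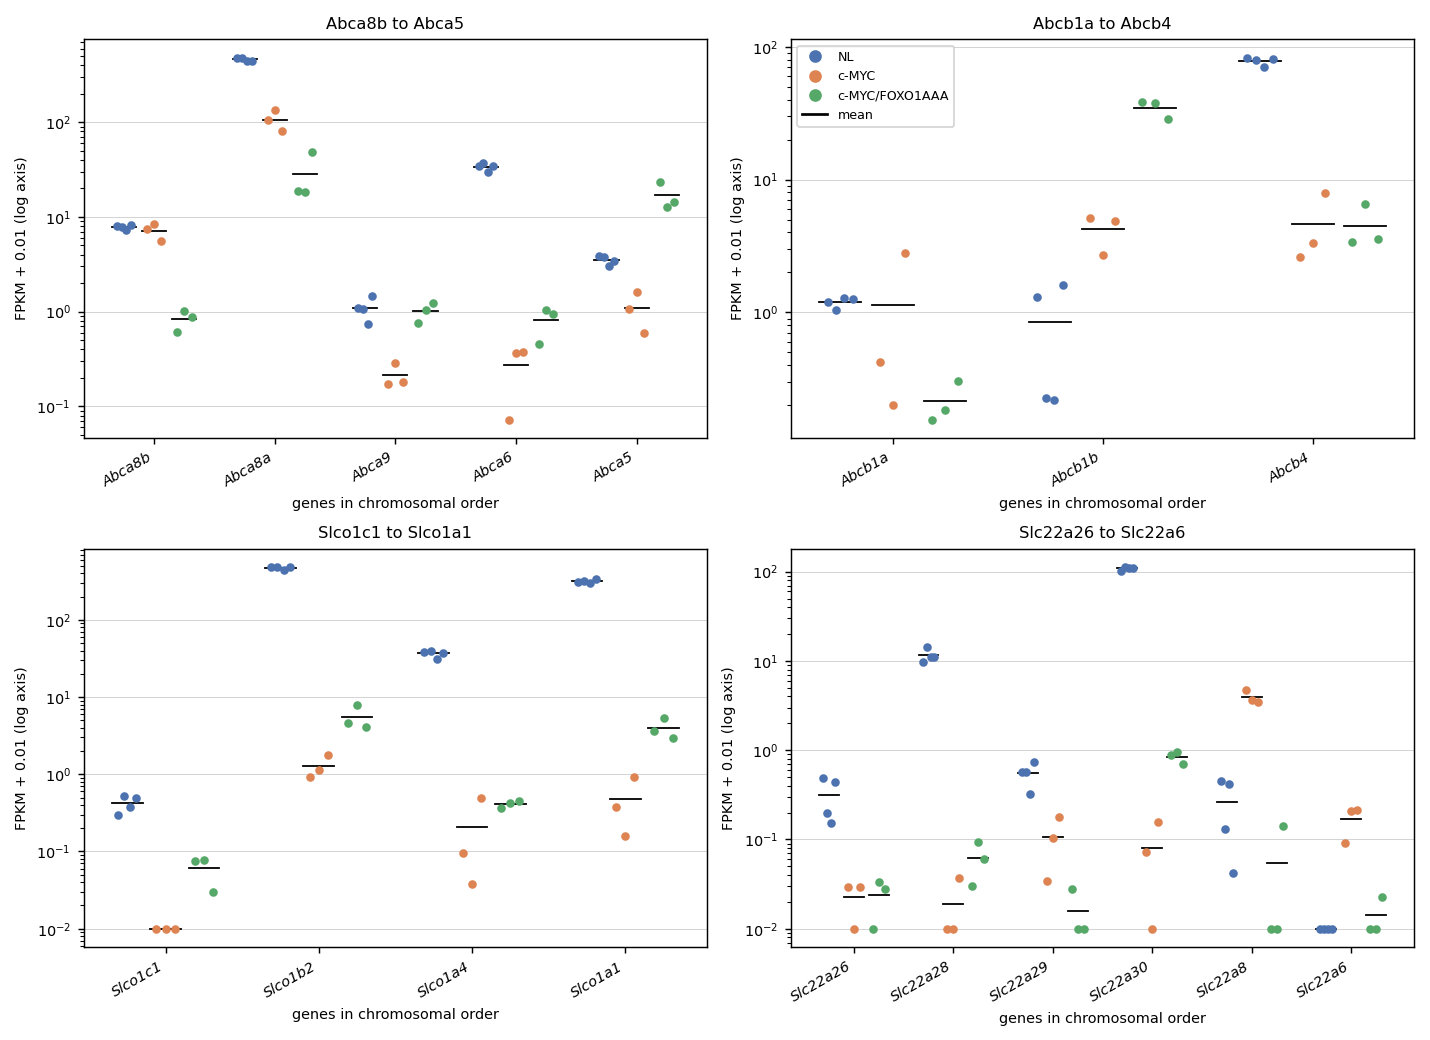
FPKM + 0.01 on a log axis in each library (points) with the group mean (line) for 4 groups of neighbouring members, in chromosomal order. In the Abca8b to Abca5 group the c-MYC/FOXO1AAA mean is 0.819 FPKM at Abca8b and 16.9 FPKM at Abca5, and in the Abcb1a to Abcb4 group it peaks at Abcb1b. Levels of different genes depend on the length used for each, which is 489 bases for Abcb1b and 2791 for Abcb4.

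Regulators known to act on these genes were largely lower too. Of 15 tested, 11 were below NL in c-MYC and 12 in c-MYC/FOXO1AAA, and 9 were lower with FOXO1AAA when compared with c-MYC alone. The shares of all genes tested that were lower in these comparisons were 23.6%, 26.6% and 12.7%. Hnf4a, a master regulator of hepatocyte genes (183 ± 14.3, 94.3 ± 15.5 and 7.15 ± 3.47 FPKM in NL, c-MYC and c-MYC/FOXO1AAA), was not called in c-MYC and was lower with FOXO1AAA. Nr1i3, the xenobiotic receptor CAR, was at 28.9 ± 1.56, 1.27 ± 0.232 and 0.293 ± 0.28 FPKM, and Nr1h4, the bile acid receptor FXR, at 71.7 ± 4.88, 13.4 ± 2.92 and 2.87 ± 1.19 FPKM. Of 10 tested partners and other carriers of the same solutes, 2 were lower and 2 higher in c-MYC than in NL, and 6 were lower and 1 higher with FOXO1AAA. Over all genes tested, 23.6% were lower and 24.5% higher in c-MYC, and 12.7% lower and 15.9% higher with FOXO1AAA. Slc47a1, which encodes the cation exporter MATE1, and Pdzk1, a scaffold of membrane carriers, were kept in c-MYC (45.6 ± 5.14 against 41.8 ± 3.42 FPKM, and 20.6 ± 4.69 against 23.8 ± 2.98) and were lower with FOXO1AAA (1.91 ± 2.12 and 0.765 ± 0.348 FPKM). The bile acid carriers outside the set, Slc10a1 and Abcb11, had means of 574, 32.2 and 5.16 FPKM and of 52.1, 9.93 and 1.02 FPKM.

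The 10 members that did not pass the filter were Abca4, Abca14, Abcc12, Slc10a6, Slc22a3, Slc22a6, Slc22a26, Slc22a29, Slco1c1 and Slco5a1. Slco5a1, an orphan OATP, held no reads in NL and 1 read in c-MYC, but 111, 117 and 64 reads (0.529, 0.46 and 0.384 FPKM) in c-MYC/FOXO1AAA. Slc22a3, which encodes the monoamine carrier OCT3, lies on chromosome 17 and held 36, 28, 28 and 20 reads in NL, 0, 2 and 1 in c-MYC, and 0, 2 and 0 in c-MYC/FOXO1AAA. The others had means of under 1 FPKM in all groups, except Slc10a6.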

How the data were processed

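RNA of whole tissue was sequenced in 10 libraries, grouped by the labels. The authors deposited 1 table of log2 FPKM values in which a library-scaled prior count of 2 had been added. Per the labels, FastQC 0.11.7 and build GRCm38 were used; aligner and counter are not given in the sources used here. The count test of the authors' methods was not used on this unit. Limma treat with a fold threshold of 1.5, chosen here, was used on the log2 values, and limma voom on recovered reads was an alternative, in R 4.3.3 with limma 3.58.1 and statmod 1.5.0.

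Linear FPKM and reads were recovered from the steps of the deposited log2 values: 98.58% of 16697 genes gave whole reads (within 0.001) for 1 length. Another 372 rows held neither symbol nor value and were left out. Depth was 13.12 to 20.55 M reads (M, mega) per library. The normalization that the authors applied multiplied the library size by 0.649 to 0.684 in NL, by 1.256 to 1.295 in c-MYC and by 1.454 to 1.502 in c-MYC/FOXO1AAA. Reads are divided by this size, so the scaling raised levels in NL and lowered those in the tumours. Levels between groups rest on it.

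Genes with at least 1 FPKM in at least 3 libraries (14017) were tested together over all 10 libraries, with trend and robust settings, a fold threshold of 1.5, two-sided, and Benjamini-Hochberg adjustment over all of them. Because of the prior count, log2 differences understate changes of low genes. Where a group held 1 to 3 reads, the ratio is given with a 95% counting interval, and where it held none, a floor of 3 reads per library was used. These cover counting error only. Replicates differed by more than counting noise (chi-square per degree of freedom 8.7 to 31.6). Per the methods, n counts mice or livers, and whether animals were pooled for a library is not given in the sources used here. The scripts were tested on simulated data.

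Members and gene lists were chosen with earlier results of these data known. Every member with a mean of at least 1 FPKM in a group (64) was named, except 3 that are counted but not reported here. Values per library were given for called members with at least 10 FPKM in a group, up to 30 by highest mean, and for those called in opposite directions at both steps. Abcc1, Abcg1, Slco4a1 and Slco5a1 were described further after their values were seen. Gene positions are from GENCODE, promoters from RefSeq GRCm38.p6.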

Additional observations from a re-analysis of the deposited data

Results flagged for a closer look

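In NL, the group with 4 libraries, 64 members were screened for a library far from the others by Dixon's test. Chance flags about 1 in 20 such groups, and 6 members were flagged. NL 1 was high for Abcb10 (16.1 FPKM, the others 13.4 to 13.7) and for Abcc4 (0.808 FPKM, the others 0.233 to 0.241). NL 2 was high for Slc22a21 (0.918 FPKM, the others 0.506 to 0.56) and low for Slco3a1 (3.88 FPKM, the others 5.93 to 6.11). NL 4 was low for Slc10a3 (1.93 FPKM, the others 2.33 to 2.36) and for Slc22a17 (0.167 FPKM, the others 0.69 to 0.77).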

How the results depend on the processing

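Of 128 called member results, 90 were called under every alternative that could be computed for them, 38 lost their call under at least 1, and no called result reversed. With a mean of at least 5 FPKM required, fewer genes were tested, and 8 members were higher in c-MYC versus NL, 13 lower in c-MYC/FOXO1AAA versus c-MYC, plus 6 higher in c-MYC/FOXO1AAA versus NL. Equal FPKM totals gave 21 higher in c-MYC versus NL and 20 higher in c-MYC/FOXO1AAA versus NL. A pseudocount of 1 gave 9 higher in c-MYC/FOXO1AAA versus c-MYC. The cause of these shifts was not tested. Leaving out 1 library at a time gave 12 to 13 higher and 29 to 32 lower in c-MYC versus NL, 15 to 17 and 18 to 21 in c-MYC/FOXO1AAA versus c-MYC, with 11 to 13 and 34 to 38 in c-MYC/FOXO1AAA versus NL. Calls were lost in 17 results with equal totals, 16 with the pseudocount of 1, 21 with a threshold of 2-fold and 2 with limma voom on the recovered reads.

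Samples with the same replicate number did not deviate together (correlations from -0.04 to 0.027), so the numbers do not pair them. With the replicate number as a block, 12 members were higher and 29 lower in c-MYC versus NL, 16 and 21 in c-MYC/FOXO1AAA versus c-MYC, with 11 and 38 in c-MYC/FOXO1AAA versus NL. The block ended 4 calls, of Abca1, Abcf1 and Slco3a1 in c-MYC versus NL and of Abce1 in c-MYC/FOXO1AAA versus NL. Changes of members with a few reads in a group are limited by depth.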
